A study of Rattus norvegicus with 9 samples.

Results

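Mitochondrial ribosomal proteins were followed as probe sets whose platform gene symbol starts with Mrpl or Mrps and a digit. That rule, which uses no measured value, took 97 of 31042 probe sets and 73 genes. By the roles known for mammalian mitoribosomes, 48 of the genes encode proteins of the large subunit and 25 of the small subunit. Mrps18a and Mrps30 are counted with the large subunit, where their proteins sit in spite of the letter S in their names. RNA of rat hippocampus was hybridised to 9 arrays, 3 in each of 3 groups. The control had artificial cerebrospinal fluid alone, and the exposed groups had ketone bodies for 1 h or for 6 h. The labels describe the RNA as from neurons of the hippocampus. They give no exposure time for the control, no ketone dose, and neither the strain nor the age of the rats. They also do not say whether replicates are separate animals or cultures, so p-values measure only the spread between these arrays, which may be technical.

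Mitochondrial ribosomes translate the few proteins encoded in mitochondrial DNA, all of them core subunits of the respiratory chain and ATP synthase. Their RNA parts come from mitochondrial DNA, while every one of their proteins is encoded in the nucleus, made in the cytosol and imported. Some of these proteins descend from bacterial ribosomal proteins, and the others were added in the mitochondrial lineage. Ketone bodies are oxidised in neuronal mitochondria, and the comparisons ask how transcripts of this machinery stood after each exposure.

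Stretches of 5 promoters are shown because they carry the motifs that recur around the genes' start sites, and because these genes return in the comparisons below. The sequences are from RefSeq, build GRCr8, and run 5′ to 3′ along the gene. Capitals mark matches to CCGGAAG (the ETS motif, bound by GABP and other ETS factors) or AAGATGGCG (the YY1 motif), on either strand. The NRF1 motif was searched as its palindromic consensus and is given by name.
Mrpl48 (chr1:164351416-164351482, minus strand, ETS): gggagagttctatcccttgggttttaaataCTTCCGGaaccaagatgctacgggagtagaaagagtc
Mrpl27 (chr10:80092254-80092320, plus strand, ETS): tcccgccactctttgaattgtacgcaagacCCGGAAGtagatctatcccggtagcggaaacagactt
Mrps21 (chr2:186103332-186103374, minus strand, ETS): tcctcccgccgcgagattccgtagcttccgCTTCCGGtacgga
Mrps18a (chr9:22367361-22367448, minus strand, ETS and YY1): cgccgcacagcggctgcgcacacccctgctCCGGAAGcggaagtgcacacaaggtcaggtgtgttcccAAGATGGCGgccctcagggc
Mrpl42 (chr7:32028495-32028533, minus strand, YY1): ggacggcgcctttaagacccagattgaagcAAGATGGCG

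The RefSeq table, which spans 250 bases before to 50 bases after each start, held 61 promoters of 59 member genes. The genes without an entry were Mrpl13, Mrpl15, Mrpl16, Mrpl19, Mrpl21, Mrpl35, Mrpl38, Mrpl43, Mrps12, Mrps22, Mrps24, Mrps28, Mrps34 and Mrps35. At least 1 of the 3 motifs lay in 28 of the 61 promoters (45.9%), against 13.2% of 21842 promoters of coding genes and 10.8% of all 33469 promoters in the table. The ETS motif lay in 20 member promoters (32.8%, against 10.7% of coding and 8.75% of all promoters), the YY1 motif in 8 (13.1%, against 2.07% and 1.73%) and the NRF1 motif in 4 (6.56%, against 1.08% and 0.852%). In 4 promoters more than 1 kind of motif was present, and in 0 did matches of different motifs overlap. Of the 8 promoters with the YY1 motif, 7 have its first match at or after the start site, as in the Mrps18a and Mrpl42 stretches above. Median GC content was 56.0% in member promoters and 55.0% in coding promoters. A match describes letters only, and no binding was measured.

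**Figure D1:**
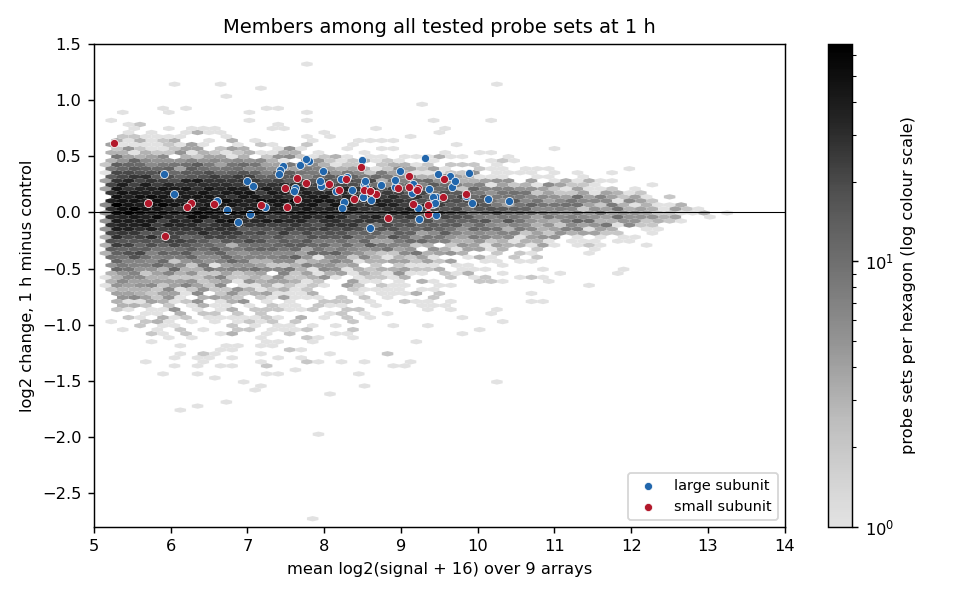
Log2 change at 1 h (1 h minus control, vertical axis) against the mean log2(signal + 16) over 9 arrays (horizontal axis), for 18625 tested probe sets as grey hexagons and 92 member probe sets as points coloured by subunit. Members lie mostly above 0, with 84 of 92 positive, and mostly at levels of 8 and over.

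Of the 97 member probe sets, 92 passed the filter on low values (a mean log2 level of 5.21, a signal of about 21.0) and represent all 73 genes. The 5 below it belong to Mrpl37, Mrps18c, Mrps22, Mrps24 and Mrps26, each of which has another probe set above it. Apart from the marker sums below, the other values here are log2(signal + 16) after quantile normalization. The members' median mean level was 8.51, against 7.14 over all tested probe sets, and 60 of the 92 had a mean of 8 or more, against 32.28% of all. The plot of change against level shows this position. RefSeq names pseudogenes or near copies for 22 of the genes, 39 in all and 9 for Mrpl30 alone, so that the values of such genes may include signal from a copy. The array annotation also lists Mrpl9, Mrpl11 and Mrpl24 in lower-case letters, which places them outside the case-sensitive rule. Their log2 changes at 1 h were 0.23, 0.22 and 0.30, with no overlap between the control and 1 h arrays in any of the 3. Over all tested probe sets, 13.0% had all 1 h arrays above all control arrays.

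Markers were read to check the labelled cell type. Marker signals were summed per array from the deposited linear values, without normalization and with probe sets below the filter included. The median deposited signal itself differed between arrays, from 34.93 to 42.73. All 6 general neuron markers were detected, with a summed signal of 16610 to 19000 per array. Glial markers were detected as well: those of astrocytes summed to 14000 to 15860 and 4 markers of oligodendrocytes to 22340 to 27740, so transcripts of cells other than neurons were present. Excitatory neuron markers (4 of 4 detected) summed to 6184 to 7035 in control, 5048 to 6157 at 1 h and 4790 to 5841 at 6 h. Microglia markers (all 5 detected) ranged from 692.8 to 810.6 in control, 861 to 928.4 at 1 h and 783.3 to 917 at 6 h, and endothelial markers (all 4) from 580.7 to 642.6, 654.8 to 675.3 and 677.6 to 739.8. Inhibitory neuron markers (all 4) ranged from 2863 to 3112, 3032 to 3253 and 3140 to 3188, and choroid plexus markers (Ttr, Folr1 and Aqp1 above the filter, Kl below) from 4393 to 4681, 3917 to 4645 and 4278 to 5211. Sums follow the brightest genes, and members of a list differed. At 1 h Aif1 (0.75) and C1qa (0.30) of microglia were positive, Csf1r was at -0.01 and Cx3cr1 at -0.39, while of the inhibitory markers Gad2 was at -1.30 and Pvalb at 0.65. Of the general neuron probe sets 7 of 8 were negative at 1 h, as were all 8 of excitatory neurons, and 0 marker probe sets passed the test in these lists. The part of these differences in the members' values was not tested. In such bulk RNA, fewer cells of a type and less RNA per cell cannot be told apart.

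At 1 h of ketone bodies, 84 of the 92 member probe sets had a positive log2 change against control, with a median of 0.20 (range -0.21 to 0.61). Over all 18625 tested probe sets, 10296 were positive and the median was 0.029. By limma with Benjamini-Hochberg adjustment, 0 members rose and 0 fell; over all tested probe sets 0.0322% passed (0.0215% rose and 0.0107% fell). The lowest adjusted p of a member was 0.299. At an unadjusted p under 0.05 there were 30 members higher and 0 lower, where the whole table gave 6.68% higher and 4.67% lower. All 1 h arrays lay above all control arrays for 44 members, against 13.0% of all tested probe sets, and below them for 2, against 8.26%. The unadjusted count was 17 without control replicate 3 (4.005% of the table) and ran from 17 to 32 over single arrays left out, with medians of 0.18 to 0.20.

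Among large subunit members, 54 of 59 probe sets were positive at 1 h with a median of 0.22, and 22 were higher at an unadjusted p under 0.05. Over all tested probe sets 55.3% were positive and 6.68% were higher at that p. Mrpl48, a protein of the large subunit with no bacterial counterpart, read 9.042, 8.997 and 8.968 in control and 9.48, 9.34 and 9.64 at 1 h. All 3 exposed arrays lay above all 3 controls. Its log2 change was 0.48 ± 0.11 (SE, n = 3 arrays per group, as in all comparisons here), a fold of 1.40, with an adjusted p of 0.299 in limma's fit.

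Mrpl13, of the bacterial L13 family, read 8.754, 8.826 and 8.885 in control and 9.13, 9.21 and 9.23 at 1 h. The groups did not overlap, and the log2 change was 0.37 ± 0.085 (limma adjusted p = 0.299). Mrpl34, a small protein of the bacterial L34 family, read 8.31, 8.37 and 8.11 in control and 8.64, 8.81 and 8.74 at 1 h. Again every exposed array was above every control, with a log2 change of 0.47 ± 0.11. Mrpl27, whose bacterial relative reaches towards the peptidyl transferase centre, read 9.79, 9.78 and 9.61 in control and 10.12, 10.02 and 10.08 at 1 h, a log2 change of 0.35 ± 0.090 without overlap. Mrpl44, a mitochondrial addition with a ribonuclease III-like fold, read 7.56, 7.48 and 7.30 in control and 7.91, 7.91 and 7.79 at 1 h. That is a log2 change of 0.42 ± 0.11, also without overlap. Further large subunit members with low p were Mrpl39 (0.41 ± 0.12), Mrpl2 (0.37 ± 0.11), whose bacterial relative lies near the peptidyl transferase centre, and Mrps18a (0.25 ± 0.084), an S18 family paralog. In the plot of 10 members by array, no 1 h array falls among the controls.

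**Figure D2:**
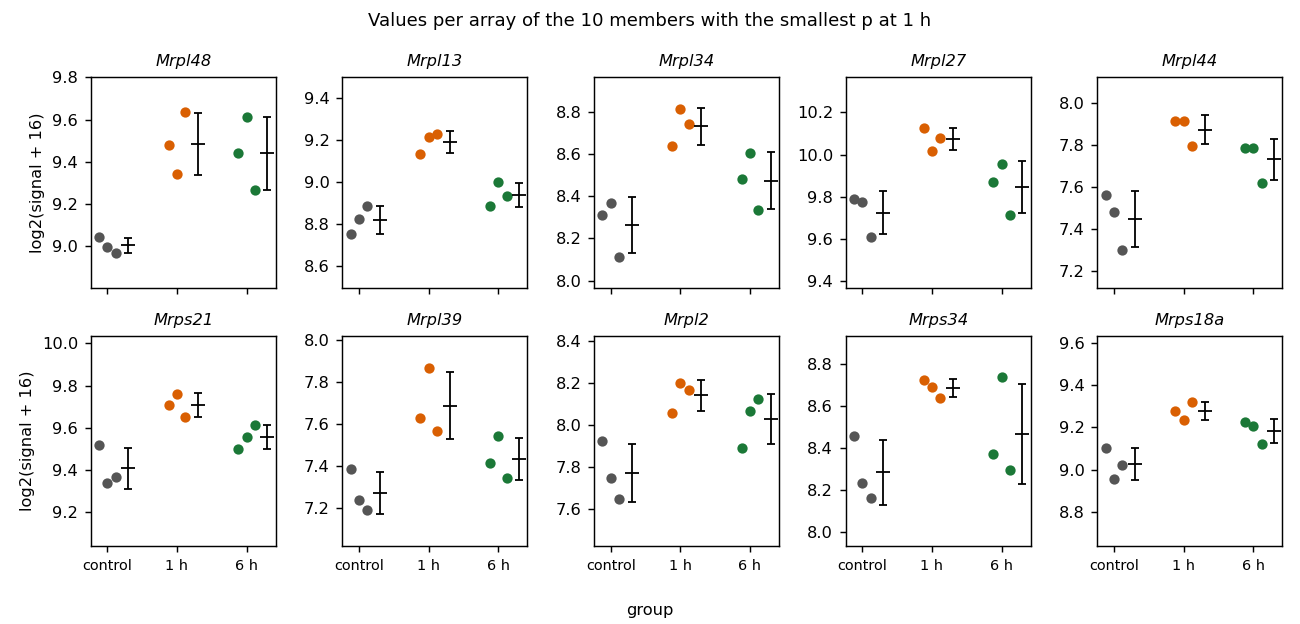
Log2(signal + 16) by array for the 10 members with the smallest p at 1 h in the control, 1 h and 6 h groups, each panel spanning 1 log2 unit, with points for arrays and bars for mean ± SD (n = 3). For Mrpl48 the 6 h arrays overlap the 1 h arrays, whereas for Mrpl13 they lie between the control and 1 h arrays. The lowest Mrpl13 6 h array (8.887) is barely above its highest control (8.885).

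In the small subunit, 30 of 33 probe sets were positive at 1 h with a median of 0.19, and 8 were higher at an unadjusted p under 0.05. The whole table gave 55.3% positive and 6.68% higher at that p. Mrps21, of the bacterial S21 family, read 9.52, 9.34 and 9.37 in control and 9.71, 9.76 and 9.65 at 1 h. The groups did not overlap and the log2 change was 0.30 ± 0.084. Mrps34, a mitochondrial addition needed for a stable small subunit, read 8.46, 8.23 and 8.16 in control and 8.73, 8.69 and 8.64 at 1 h (0.40 ± 0.13, no overlap). The 1 h arrays were close together for both genes. The members with bacterial relatives (49 of 52 positive, median 0.20) and the mitochondrial additions (35 of 40 positive, median 0.19) differed little in their medians. The plot of changes by subunit shows both subunits spread around similar values.

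**Figure D3:**
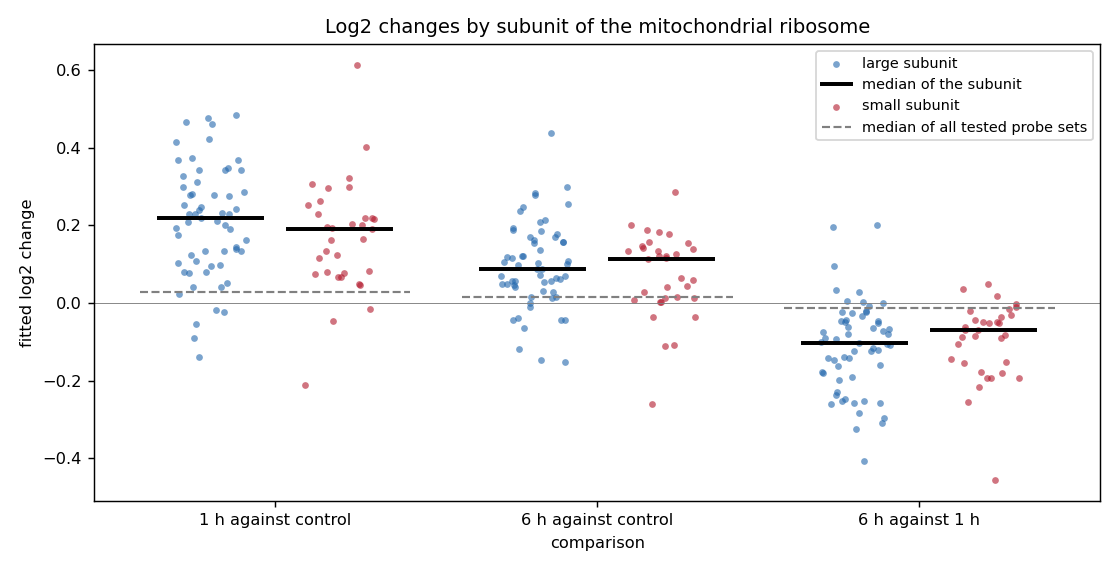
Log2 changes of the 92 tested member probe sets by subunit for each comparison, with points for probe sets and lines for medians. At 1 h the medians were 0.22 for the large and 0.19 for the small subunit, at 6 h 0.089 and 0.11.

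Members with a negative log2 change at 1 h were few. Mrps2, of the bacterial S2 family, has 3 tested probe sets, with changes of -0.21 ± 0.19, -0.045 ± 0.094 and 0.076. In the first of these the control arrays read 6.10, 6.08 and 6.08 and the 1 h arrays 5.82, 5.97 and 5.85, so the 1 h arrays lay below all controls. The other member without overlap in that direction was a Mrpl37 probe set, with a change of -0.089. Mrpl51, a mitochondrial addition, gave -0.14 ± 0.13, -0.019, 0.16 and -0.055 over 4 probe sets, and its groups overlapped in the first. None of these passed the test.

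Genes with several tested probe sets allowed a second reading of the same transcript in 15 cases. Probe sets differed by less than 0.12 in log2 change for Mrpl57 (0.28 and 0.23), Mrpl12 (0.23 and 0.34), Mrpl50 (0.19 and 0.28), Mrpl10 (0.095 and 0.052) and Mrps27, an RNA-binding protein with 3 probe sets (0.066, 0.083 and 0.048). They differed by more for Mrpl49 (0.31 and 0.18), Mrpl52 (0.48 and 0.099), Mrpl40 (0.37 and 0.023), Mrps9 (0.25 and 0.047), Mrps14 (-0.015 and 0.22), Mrps18c (0.22 and 0.080) and Mrpl37 (0.078 and -0.089). Mrps15, of the S15 family, gave 0.19 and 0.61. Its second value comes from a dim probe set that read 5.04, 5.15 and 4.84 in control and 6.12, 5.31 and 5.44 at 1 h, near the filter level, and it had the largest SD of all tested members over the 9 arrays (0.367). A Mrps9 probe set (0.346) and a Mrpl12 probe set (0.299) followed, while Mrps2 (0.0741), Mrpl19 (0.0765) and Mrps17 (0.0783) had the smallest. The plot of probe sets by gene shows these pairs with their errors.

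**Figure D4:**
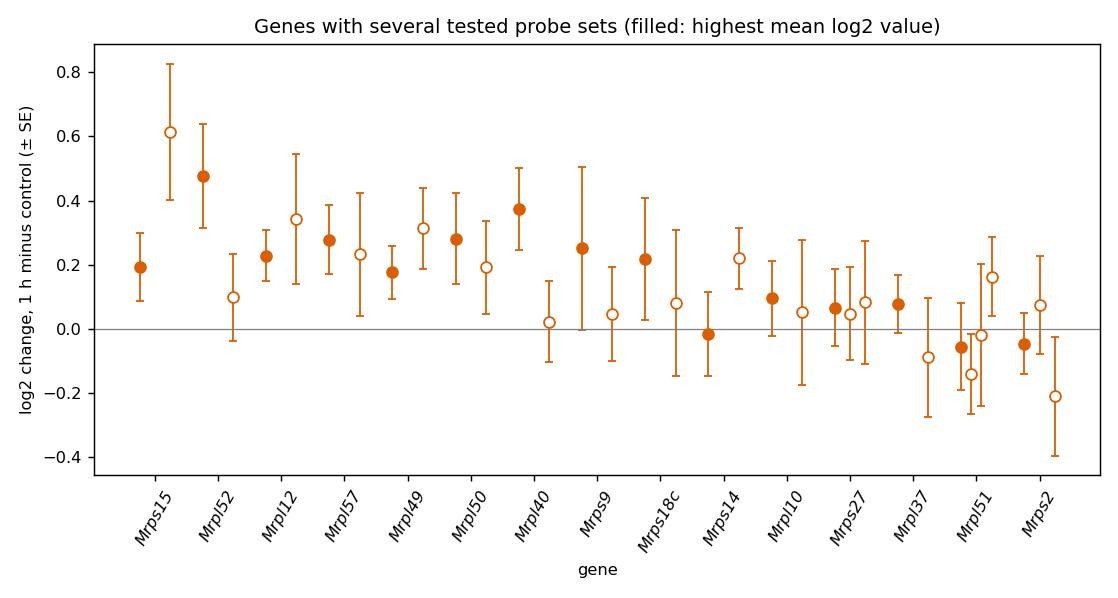
Log2 change at 1 h ± SE for genes with more than 1 tested probe set, each point a probe set, with the filled point being the probe set of highest mean signal. Mrpl57 probe sets lie together (0.28 and 0.23), whereas those of Mrpl40 lie apart (0.37 and 0.023).

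At 6 h, 77 of 92 member probe sets were positive against control, with a median of 0.094 (range -0.26 to 0.44). Over all tested probe sets 53.8% were positive and the median was 0.015. By limma 0 members rose and 0 fell after Benjamini-Hochberg adjustment, where 0.0268% of the table passed (0.0215% rose and 0.00537% fell), and the lowest adjusted p was 0.64. At an unadjusted p under 0.05, 4 members were higher and 0 lower, against 2.79% and 1.47% of the table. The 6 h arrays lay above all controls for 15 members and below for 0, against 6.05% and 3.15%. The 1 h and 6 h comparisons share the control arrays, so their values are given side by side and are not independent. The median was 0.050 without 6 h replicate 2. The unadjusted count was then 1 higher and 1 lower (1.84% and 0.956% of the table). It was 2 higher without control replicate 3 (2.31%) and 8 without 6 h replicate 3 (3.95%).

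Mrpl48 read 9.44, 9.61 and 9.27 at 6 h, all above its controls, with a log2 change of 0.44 ± 0.11 and a limma adjusted p of 0.64. Mrps35, a small subunit protein, read 8.21, 8.14 and 7.93 in control and 8.35, 8.50 and 8.30 at 6 h, a change of 0.29 ± 0.11 without overlap. Mrpl44 read 7.79, 7.79 and 7.62 at 6 h, also above all controls (0.28 ± 0.11). The fourth member with an unadjusted p under 0.05 was Mrpl2 (0.25 ± 0.11), whose lowest 6 h array of 7.89 lay below its highest control of 7.92. Mrps12, which belongs to the family of the bacterial decoding-centre protein S12, gave 0.20 ± 0.10 and Mrpl12, of the stalk protein family, 0.15 ± 0.080. Mrpl52 (0.30), Mrpl54 (0.28), Mrps30 (0.18) and Mrps18a (0.16) complete the 10 with the smallest p at 6 h. Negative changes included Mrps2 (-0.26), Mrpl37 (-0.15) and Mrpl22 (-0.12), and the 6 h arrays of that Mrps2 probe set ranged from 5.42 to 6.22. By subunit, 49 of 59 large subunit probe sets (median 0.089) and 28 of 33 small subunit probe sets (median 0.11) were positive at 6 h. The share over all tested probe sets was 53.8%.

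Set against 1 h, the 6 h arrays gave a negative log2 change for 82 of 92 members, with a median of -0.088 (range -0.46 to 0.20). Over all 18625 tested probe sets, 9875 were negative and the median was -0.012. After Benjamini-Hochberg adjustment in limma 0 members passed in either direction, as did 0% of the table, and the lowest adjusted p was 0.996. At an unadjusted p under 0.05 there were 0 higher and 7 lower, against 1.31% and 1.41%, all 7 from the large subunit. The 6 h arrays lay below all 1 h arrays for 15 members and above for 0, against 4.04% and 3.55%. The lower count was 3 without 1 h replicate 1 (1.16% of the table), 2 without 6 h replicate 3 (1.18%) and 11 without 6 h replicate 2 (2.13%), and the median was -0.14 without the last of these.

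Mrpl13 had the smallest p in this comparison: its 6 h arrays read 8.887, 8.999 and 8.934, below every 1 h array, for a change of -0.25 ± 0.085. Mrpl42, a mitochondrial addition, read 9.55, 9.77 and 9.76 at 1 h and 9.52, 9.52 and 9.16 at 6 h (-0.30 ± 0.11). The value of 6 h replicate 3 is apart from the other two. Mrpl27 (-0.23), Mrpl34 (-0.26), Mrpl40 (-0.31), Mrpl30 (-0.26) and Mrpl50 (-0.32) were the others with an unadjusted p under 0.05, and Mrps15 (-0.46), Mrpl20 (-0.26) and Mrpl1 (-0.24) had the next smallest p. Mrpl51 (0.20 and 0.096 in a pair of its probe sets) and Mrpl52 (0.20 in one) had positive changes. The F test for any difference among the 3 groups gave 0 members after adjustment and 19 at an unadjusted p under 0.05, against 0.0215% and 6.36% of the table, with a lowest adjusted p of 0.515.

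**Figure D5:**
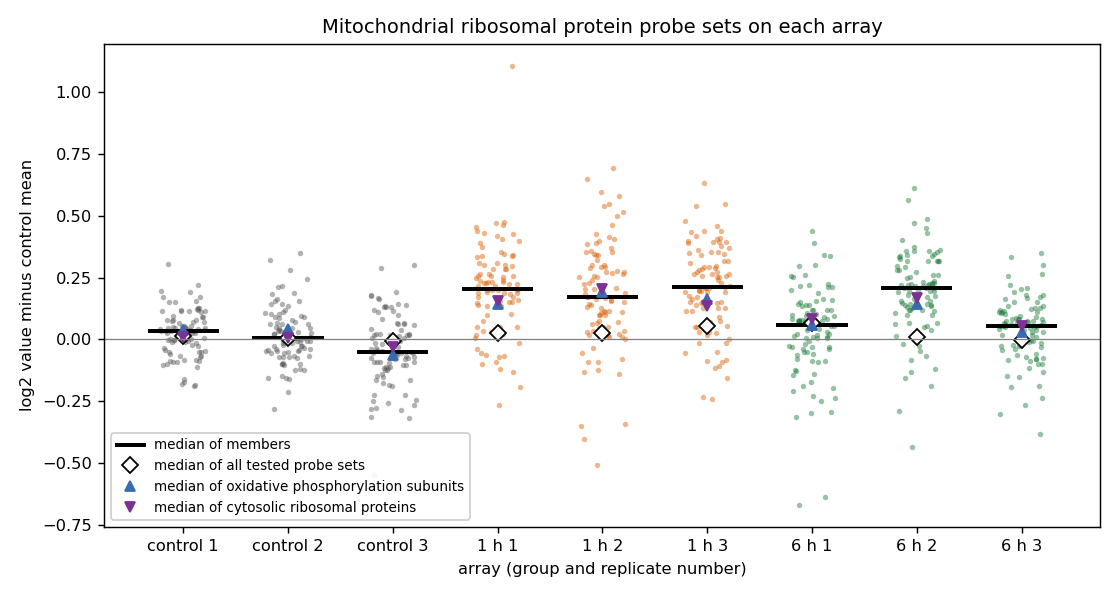
Median over 92 member probe sets of each array's log2 value minus the mean of the control arrays (vertical axis, log2 units), for the 9 arrays by group, with the same for other gene lists and all tested probe sets. The 1 h arrays lie between 0.17 and 0.21 for the members, while 6 h replicate 2 (0.21) stands above the other 6 h arrays.

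Read array by array, the members' median shift from the control mean was 0.034, 0.0074 and -0.052 in control, 0.20, 0.17 and 0.21 at 1 h and 0.059, 0.21 and 0.056 at 6 h. The 1 h arrays thus lay close together and above all controls, and at 6 h replicate 2 alone reached that level. On each 1 h array 80 of the 92 members stood above their control mean, while at 6 h the counts were 60, 81 and 61. On the control arrays themselves they were 58, 50 and 35, so 6 h replicates 1 and 3 stood little above control replicate 1. The median over all tested probe sets lay between -0.0071 and 0.067 and was below the members' on every exposed array but 6 h replicate 1, where it was 0.067 against 0.059. As a sign of RNA integrity, the 3′ over 5′ control signals of beta-actin and Gapdh were read in log2. For beta-actin the ratio was 1.37, 1.27 and 1.42 in control, 1.39, 2.16 and 2.02 at 1 h and 2.58, 1.92 and 1.03 at 6 h. For Gapdh it was 0.13, 0.021 and 0.24 in control, 0.063, 0.14 and 0.12 at 1 h and 0.46, 0.075 and 0.036 at 6 h. At 1 h the arrays with beta-actin ratios of 1.39, 2.16 and 2.02 had member shifts of 0.20, 0.17 and 0.21. At 6 h those with ratios of 2.58, 1.92 and 1.03 had shifts of 0.059, 0.21 and 0.056. With the beta-actin ratio as a covariate the members' median was 0.20 at 1 h, with 23 members higher at an unadjusted p under 0.05, against 4.37% of the table. At 6 h the median was 0.095, with 2 higher, against 1.82%, which is close to the background. The part of RNA integrity in the members' shifts was not tested.

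Members also varied together over the arrays. Their mean pairwise Pearson correlation over the 9 arrays was 0.329, against 0.0105 over all tested probe sets, and 0.141 against 0.00939 for deviations from the group means. These are descriptions, since every pair shares the same 9 arrays. The large subunit (0.358) was above the small (0.282) over the arrays, and both were similar within groups (0.145 and 0.137). Cytosolic ribosomal proteins (0.398 and 0.142) and oxidative phosphorylation subunits (0.379 and 0.168) gave values of like size. Positive medians of members were present through most of the signal range: at mean levels of 7 to 8 their 1 h median was 0.25 against 0.040 for all probe sets, at 8 to 9 it was 0.20 against 0.033, and at 9 to 10 it was 0.18 against 0.025. Below 7 it was 0.082 against 0.028, with 10 of 12 positive.

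Changes at 1 h stood side by side with the promoter motifs shown above. The median change at 1 h was 0.23 for the 28 genes with any of the 3 motifs and 0.19 for the 31 without. By motif it was 0.22 with and 0.20 without ETS, 0.24 (8 genes) and 0.20 for YY1, and 0.20 (4 genes) and 0.21 for NRF1. At 6 h the order differed by motif, with 0.10 and 0.11 for ETS, 0.050 and 0.11 for YY1, 0.15 and 0.099 for NRF1, and 0.11 on both sides for any motif. Of the 10 members with the smallest p at 1 h, Mrpl48, Mrpl27, Mrps21 and Mrps18a hold the ETS motif and Mrpl44 the NRF1 motif. Mrpl34, Mrpl39 and Mrpl2 hold none of the 3, and Mrpl13 and Mrps34 have no entry in the table. Gabpa, a subunit of the ETS factor GABP, had a log2 change of -0.49 ± 0.27 at 1 h, with control arrays from 6.50 to 7.55. Gabpb1, another GABP subunit, gave 0.071 ± 0.16, and Nrf1, the factor of the NRF1 motif, 0.0051 ± 0.14. None of these genes passed the test.

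Other genes of mitochondrial translation were read from lists. The proteins of the ribosome that carry other names were positive at 1 h in 5 of 5 probe sets (median 0.20, with 0 passing): Aurkaip1 0.28 ± 0.10, Gadd45gip1 0.25, Chchd1 0.20, Ptcd3 0.11 and the GTP-binding Dap3 0.11. At 6 h the same 5 were positive with a median of 0.077. Of 23 probe sets of assembly and ribosomal RNA modification factors, 18 were positive at 1 h (median 0.16) and 13 at 6 h (median 0.044), with 0 passing. The 6 h share of 56.5% is near the 53.8% of all tested probe sets. Mterf4, which brings the RNA methyltransferase Nsun4 to the large subunit, read 7.23, 7.16 and 7.11 in control, 7.47, 7.60 and 7.43 at 1 h and 7.38, 7.52 and 7.62 at 6 h. Both exposed groups lay above the controls, with log2 changes of 0.33 ± 0.11 and 0.34 ± 0.11. Mettl17, an assembly factor of the small subunit, gave 0.52 ± 0.20 at 1 h, and a pair of Nsun4 probe sets 0.35 and -0.041. At 6 h these were 0.25, -0.013 and -0.11. The RNA methyltransferase Mrm3 gave 0.31 and 0.34 at 1 h and -0.056 and 0.27 at 6 h in its probe sets.

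The list of translation factors (17 probe sets) also holds the membrane insertase Oxa1l (1 probe set) and the inner-membrane protein Letm1 (3 probe sets), which are not translation factors. It was positive in 10 at 1 h (58.8%, median 0.13) and 11 at 6 h (64.7%, median 0.037), with 0 passing. Over all tested probe sets 55.3% were positive at 1 h and 53.8% at 6 h, so the list's 1 h share is near the background. The smallest p at 1 h belonged to the recycling factor Mrrf (0.37 ± 0.14, and -0.065 in its other probe set) and to Mtrfr, a ribosome rescue factor (-0.88 ± 0.45, and -0.029). Tufm, the elongation factor that carries aminoacyl-tRNA, gave 0.18 and 0.20 at 1 h, and Mtif2, the initiation factor, -0.15. The list of mitochondrial aminoacyl-tRNA synthetases also holds the amidotransferase subunits Gatb, Gatc and Qrsl1, which are not synthetases. Its Gars1 and Kars1 encode the cytosolic enzymes as well. In this list 14 of 20 probe sets were positive at 1 h (70%, median 0.11). Fars2, which charges phenylalanine tRNA, gave 0.39 ± 0.15, and a pair of Gatc probe sets 0.29 and -0.061. At 6 h 14 of the 20 were positive (70%, median 0.030), with Sars2 at 0.27, Gatb at -0.43 and a pair of Wars2 probe sets at 0.30 and 0.039. The list for transcription and stability of mitochondrial RNA (30 probe sets) also holds genes of other roles. Polg, Polg2, Twnk and Ssbp1 serve mitochondrial DNA replication, and Ppargc1a, Esrra, Nrf1, Gabpa and Gabpb1 regulate transcription of nuclear genes. Of the 30 probe sets, 20 were positive at 1 h (66.7%, median 0.076) and 14 at 6 h (46.7%, median -0.026), again with 0 passing. Tfam, which packages mitochondrial DNA and starts its transcription, read 7.71, 7.81 and 7.72 in control and 8.06, 8.18 and 7.98 at 1 h, without overlap (0.32 ± 0.10). Hsd17b10, a subunit of mitochondrial ribonuclease P, gave 0.40 ± 0.13 and the RNA-binding Slirp 0.25 ± 0.084. At 6 h the smallest p belonged to the mitochondrial DNA helicase Twnk (-0.33, and -0.045 in its other probe set) and to Pnpt1, a polynucleotide phosphorylase (-0.22), and against 1 h to the elongation factor Tefm (-0.29).

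Beside these lists, cytosolic ribosomal proteins had 48 of 49 positive changes at 1 h (median 0.15) and 45 at 6 h (median 0.10), and oxidative phosphorylation subunits 77 of 82 (median 0.17) and 71 (median 0.082), with 0 passing in either list. Both medians at 1 h lay below the members' 0.20. At 6 h the cytosolic median was above the members' 0.094 and the other below it. At 1 h 21 of 49 cytosolic and 34 of 82 oxidative phosphorylation probe sets were higher at an unadjusted limma p under 0.05. The members had 30 of 92. All 1 h arrays lay above all controls for 24 and 41 probe sets of these lists, and for 44 members. Over all tested probe sets these shares were 6.68% and 13.0%. No difference between the lists was tested. On the 1 h arrays the cytosolic list shifted by 0.16, 0.20 and 0.14 and the oxidative phosphorylation list by 0.14, 0.19 and 0.16.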

How the data were processed

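The authors deposited 1 table of linear signal intensity for 31099 probe sets, 1 column per array and linear in scale as judged by its values. The software behind it is not given in the sources used here. The 57 control probe sets were left out. Values were taken as log2(signal + 16), quantile normalized and filtered at the 40th percentile of the mean over all arrays, which left 18625 probe sets. All 9 arrays entered a single limma fit (version 3.58.1, R 4.3.3) that had a coefficient for each group, 6 residual degrees of freedom, variances moderated with an intensity trend, and Benjamini-Hochberg adjustment over all tested probe sets at a threshold of 0.05. Arrays give no read depth, and their number limits the precision. The steps were tested on simulated data. Gene names came from the platform annotation, and the Entrez numbers of all 97 member probe sets matched RefSeq. Promoters are from RefSeq, build GRCr8; protein sequences were not used here. The members and lists were chosen with earlier results of these data known. Named genes are, per comparison, the 10 members with the smallest p and the 3 of opposite sign, genes with several tested probe sets, the 3 members with the largest and smallest SD, and the 2 genes with the smallest p per list and comparison. Outside that rule, Gabpa, Gabpb1 and Nrf1 are named for their motifs, Gadd45gip1 and Ptcd3 to complete a list, and some genes as markers. Oxa1l, Letm1, Qrsl1, Gars1, Kars1, Polg, Polg2, Ssbp1, Ppargc1a and Esrra are named for what a list holds. These were chosen after their values were seen. Lists are described by counts and medians, with no set test. There were 20 other settings, and 3 more were added after seeing the data. Figures were drawn with matplotlib 3.10.9.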

Additional observations from a re-analysis of the deposited data

How the results depend on the processing

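In the settings tried, 0 members rose and 0 fell in each comparison. Centring on array medians in place of quantile normalization moved the members' median to 0.29 at 1 h and 0.17 at 6 h, with medians over all probe sets of 0.096 and 0.071. It gave 51 and 7 members higher at an unadjusted p under 0.05, against 11.3% and 3.91% of the table, and there a Mrps2 probe set turned to 0.066 at 1 h. The Mrpl37 probe set with a negative change at 6 h turned from -0.15 to 0.00872 with the beta-actin ratio as covariate, to 0.090 without 6 h replicate 1 while it was -0.28 without 6 h replicate 2, and turned to 0.090 without the 2 arrays farthest out (6 h replicate 1 and 1 h replicate 3). A Mrpl51 probe set turned to -0.048 in 6 h against 1 h without 1 h replicate 2. The cause was not tested in any of these. Without the 2 far arrays the medians were 0.20 at 1 h, 0.13 at 6 h and -0.050 for 6 h against 1 h. Same-numbered arrays did not all deviate together (correlations of -0.36 to 0.539), nor did each correlate best with its own number, so the numbers were not taken as pairs; with the replicate number as a block 0 members passed, and 27 members were higher at 1 h, 3 higher at 6 h and 5 lower at 6 h against 1 h at an unadjusted p under 0.05, where the table gave 6.34%, 2.73% and 1.40%. The number of arrays limits the precision of each value.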

Other observations

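Some members start near a gene that runs in the opposite direction. Of the 61 member promoters, 17 (27.9%) had a coding gene starting in the opposite direction within 1000 bases, against 7.52% of coding promoters. One such pair is Mrpl46 and Mrps11, a large and a small subunit gene whose starts lie 234 bases apart on chromosome 1; their log2 changes were 0.24 and 0.20 at 1 h and 0.19 and 0.13 at 6 h. Mrpl47 (0.34 at 1 h) starts 244 bases from Ndufb5, a complex I subunit (0.09). Among partners that are no members, 11 were tested. Of these, 8 had a positive change at 1 h (median 0.09, range -0.29 to 0.89) and 5 at 6 h (median 0.0). Over all tested probe sets 55.3% were positive at 1 h and 53.8% at 6 h. The highest partner at 1 h was Hira, a histone chaperone gene beside Mrpl40 (0.37 at 1 h), and the lowest Mitd1, beside Mrpl30 (0.25). These partners were looked up after the members' values were seen, and no test was made of them.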
